A study of Mesocricetus auratus with 11 samples.

Results

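Dense CpGs that carry little methylation in primary fetal cells of the Syrian hamster (Mesocricetus auratus) were followed into MT2, a transformed cell line, and into MT2 cells given 5-aza-2'-deoxycytidine (5aCdR). A CpG was counted as dense when at least 20 CpGs, itself included, were listed in any of the 11 libraries within 250 bp on either side. The sites were selected on the pooled methylation level of primary replicates 1 and 2, which had to be below 20%, and on at least 10 reads in all 11 libraries. This left 19092 CpGs on 440 scaffolds, which are 23.5% of the 81297 CpGs with 10 or more reads in every library and 93.4% of the 20435 dense ones among these. In all, 2010882 CpGs were listed in at least 1 library. The values of primary replicates 1 and 2 chose the sites and are given as a description only. Primary replicates 3 and 4 took no part in the choice and stand for the primary cells in every comparison. Below, "dense CpGs" means these 19092 sites.

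Most CpGs of a mammalian genome are methylated, and clusters of CpGs, known as CpG islands, are the main exception. Many islands overlap the promoters of housekeeping and developmental genes and stay free of methylation in normal cells whether or not the gene is transcribed. In immortal and cancer cells some islands acquire methylation. 5aCdR is a cytidine analogue that is built into DNA during replication and traps DNA methyltransferases, so that methylation is lost as cells divide. Whether a listed CpG lies in an island or a promoter was not determined here, because no genome of the files' scaffolds was used.

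The assay was reduced representation bisulfite sequencing, which reads the ends of fragments cut at a CpG-containing motif and therefore favours CpG-rich DNA. The 4 primary libraries came from individual female fetuses at gestation day 13.5, without head, viscera and limbs, and hold a mixture of ectodermal and mesodermal cells kept for fewer than 3 days and 1 passage, frozen, thawed and left untreated. MT2 is a female line that grew from a colony transformed by benzo[a]pyrene (5 µg/mL) and passed senescence, and it was at about passage 28. Its wells were seeded from 1 thawed stock, and 4 received the vehicle (0.05% DMSO) and 3 of the 4 plates that received 5 µM 5aCdR for 48 h were analysed here. The MT2 wells are technical replicates of 1 line, according to the study's design text, so the p-values below measure the spread between wells and between 2 fetuses, and not between lines. What transformation, time in culture, passage number and the cell of origin each contribute to a difference between MT2 and the fetal cells cannot be told apart.

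The deposited files held 19331056 to 37417483 reads over CpGs in the primary libraries, 17834610 to 37595680 in the vehicle libraries and 36110136 to 46148127 in the 5aCdR libraries. The median number of reads per dense CpG was between 25 and 59 by library. CpGs of the mitochondrial genome, 10 to 29 per library and not the same ones in each, gave a pooled level of 3.73 to 4.97% in primary, 2.48 to 3.56% in vehicle and 2.26 to 2.59% in 5aCdR libraries. At the 8 mitochondrial CpGs common to all libraries the unweighted mean of the site levels, another measure, was 16.3 to 24.2, 5.48 to 9.56 and 2.00 to 6.39%. From primary to vehicle these levels were lower, where the dense CpGs described next were higher. From vehicle to 5aCdR both the mitochondrial levels and the dense CpGs were lower, and the part of the former in the results was not tested.

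Dense CpGs carried more methylation in MT2 than in the fetal cells, from a very low start, and part of it was gone after 5aCdR. The mean level over the 19092 sites was 1.12% and 1.23% in primary replicates 3 and 4. In the 4 vehicle wells it was 3.08, 3.04, 2.94 and 2.97%. The 3 wells given 5aCdR stood at 2.61, 2.55 and 2.58%. The 3 groups did not overlap, and every 5aCdR well lay between the primary and the vehicle libraries. In primary replicates 1 and 2, which chose the sites, the means were 0.711 and 0.637%.

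The vehicle mean of 3.01% ± 0.0636 (SD, n = 4) was 1.83 percentage points, or 2.56-fold, above the primary mean of 1.17% ± 0.0810 (SD, n = 2). An exact two-sided permutation test over libraries gave p = 0.0667, the smallest value that 15 splits of 4 against 2 libraries allow. The 5aCdR mean of 2.58% ± 0.0310 (SD, n = 3) lay below the vehicle mean, which fell by 0.427 points or by 14.2% (exact permutation p = 0.0286, the smallest of 35 splits). It remained 1.41 points, or 2.2-fold, above the primary cells (exact permutation p = 0.1, the smallest of 10 splits). After Benjamini-Hochberg adjustment over the 24 tests on dense CpGs, each of these 3 differences had an adjusted p of 0.109. No adjusted p below 0.05 was possible with so few libraries, so that none passed is not a result about the sites. All 3 differences were larger than the spread between libraries.

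The typical dense CpG stayed unmethylated throughout. The median level was 0 in each of the 11 libraries, and 53.2% of the sites had no methylated read in any library. The share of dense CpGs at 20% or more was 2.05 and 2.14% in primary replicates 3 and 4, 5.20 to 5.40% in the vehicle wells and 4.30 to 4.41% in the 5aCdR wells. At 50% or more stood 0.377 to 0.43% of sites in the 2 primary libraries, 1.46 to 2.03% in vehicle wells and 0.911 to 0.980% in 5aCdR wells. Neither share overlapped between the groups, and their exact permutation p-values were again the smallest the designs allow. Shares above a limit can also depend on depth, which differed between the groups. The 5aCdR libraries held 36110136 to 46148127 reads and the vehicle libraries 17834610 to 37595680. The part of depth in the 2 shares was not tested.

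Depth changes how often a rare methylated read is seen, so the share of sites without one was also computed for 10 reads drawn from each CpG. With 10 reads per site 95.0 to 95.9% of dense CpGs had no methylated read in primary replicates 3 and 4. In vehicle wells it was 89.7 to 92.6% and in 5aCdR wells 89.7 to 90.4%. This draw makes reads equal but not the number of molecules behind them. Over all CpGs with 10 or more reads in every library, the thinned share still ran from 41.9 to 47.3% among vehicle wells. The part of depth left after thinning was not tested. Without thinning the ranges were 91.8 to 94.1%, 85.9 to 91.3% and 83.9 to 85.7%. The 5aCdR and vehicle wells overlapped after thinning, and the share fell by 1.16 points from vehicle to 5aCdR (exact permutation p = 0.314). While the mean level was lower after 5aCdR, no drop in the number of sites with a methylated read was detectable.

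**Figure D1:**
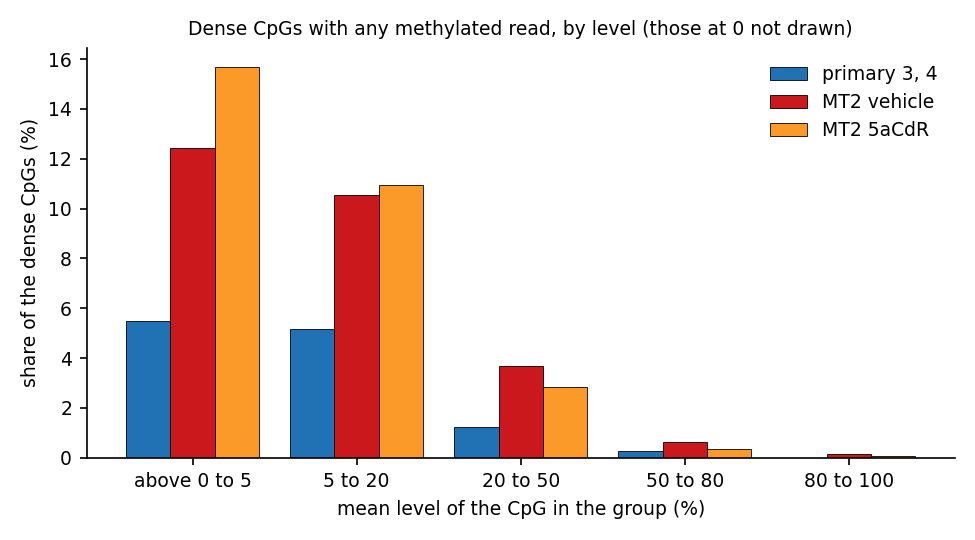
Share of the 19092 dense CpGs (y axis, percent) by the mean level of the site in a group (x axis, percent of reads), for primary replicates 3 and 4, vehicle and 5aCdR. Sites at 0 (87.8, 72.5 and 70.1%) are not drawn, and the lowest classes also depend on depth and on the 2, 4 and 3 libraries averaged. At 20 to 50% the bars stand at 1.23, 3.69 and 2.82%.

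The classes of level show where the 5aCdR wells differed. By group mean, 704 dense CpGs lay at 20 to 50% in vehicle and 539 in 5aCdR, against 235 in primary cells. Another 124, 70 and 53 lay at 50 to 80%, in the same order. Only 33 sites reached 80% or more in vehicle, 16 in 5aCdR and 2 in primary cells. More sites were found at low levels. Above 0 and up to 5% lay 2373 in vehicle and 2992 in 5aCdR, against 1045 in primary cells. At 5 to 20% there were 2010, 2091 and 988, so in these 2 classes the 5aCdR counts were above those of vehicle. These classes rest on means over wells that can differ widely, so fewer sites reach 50% by group mean than in a single well. The counts can also depend on depth and on the number of libraries averaged, and this part was not tested.

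CpGs with fewer neighbours, chosen by the same limit in primary replicates 1 and 2, started higher. At medium density (5 to 19 CpGs in the window, 12580 sites) the level was 8.28 and 8.94% in primary replicates 3 and 4, 12.6 to 13.2% in vehicle and 10.6 to 11% in 5aCdR wells. At sparse sites (1 to 4 CpGs, 3705 sites) it was 19.2 and 19.9%, 21.7 to 22.4% and 18.4 to 18.8%. The rise from primary to vehicle was 1.49-fold at medium and 1.13-fold at sparse sites, against 2.56-fold at dense ones. Over all 81297 common CpGs the level was lower in vehicle (38.1%) than in primary cells (41.2%).

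Whether the dense CpGs differed from the others depended on the scale. In percentage points their rise was smaller: the rise at dense CpGs minus that at medium-density CpGs was -2.40 points, and minus that at sparse CpGs it was -0.784 points. As a log2 ratio of the 2 classes within each library, a measure added after the data were seen, the dense CpGs rose more, by 0.78 against medium and by 1.18 against sparse CpGs. Each of these 4 differences had an exact permutation p of 0.0667, the smallest possible, and an adjusted p of 0.109. When every CpG had to have 20 reads, the difference from sparse CpGs in points was -0.0611 (exact permutation p = 0.933). Both log2 ratios kept their sign under every setting tried.

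**Figure D2:**
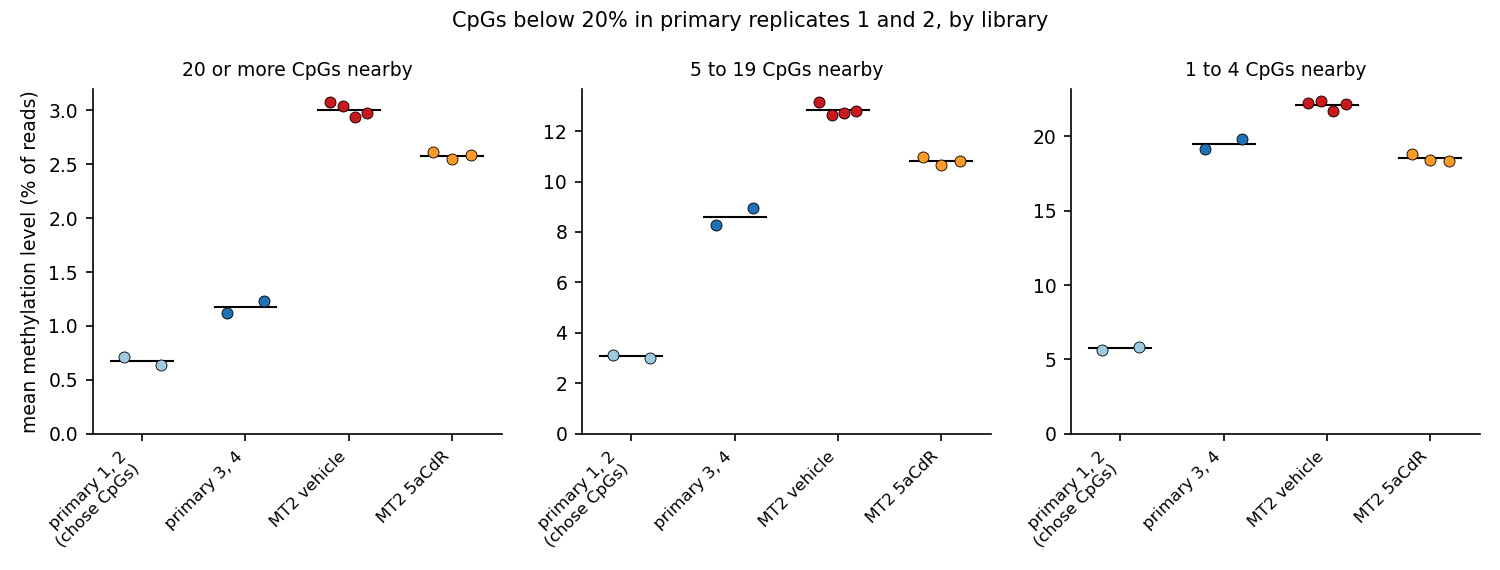
Mean methylation level (y axis, percent of reads) of CpGs below 20% in primary replicates 1 and 2, one point per library and a line at the group mean, for dense, medium-density and sparse sites. Each panel has its own scale from 0. At dense sites the vehicle wells (2.94 to 3.08%) lie above the 5aCdR wells (2.55 to 2.61%), and both lie above primary replicates 3 and 4.

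After 5aCdR all 3 densities stood lower than in vehicle. Vehicle levels fell by 14.2% at dense, 15.9% at medium and 16.3% at sparse CpGs. The log2 ratio of dense to medium CpGs moved by 0.03 from vehicle to 5aCdR (exact permutation p = 0.171), and that of dense to sparse CpGs by 0.04 (exact permutation p = 0.0571). Among dense CpGs the ratios of the 5aCdR wells to medium CpGs, -2.07 to -2.06, lay inside the range of the vehicle wells, -2.12 to -2.06. The ratios to sparse CpGs, -2.85 to -2.83 in 5aCdR wells, lay above all vehicle wells, -2.90 to -2.85.

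The starting level also differs between densities, so the sites were split by their pooled level in primary replicates 1 and 2. At 0 in those libraries stood 17504 dense, 8894 medium-density and 1836 sparse CpGs. The dense ones went from 0.847% in primary replicates 3 and 4 to 2.42% in vehicle (2.86-fold) and to 2.11% after 5aCdR. The medium ones went from 4.87 to 8.58% (1.76-fold) and the sparse ones from 15.3 to 18.8% (1.23-fold). Sites without a methylated read in fetuses 1 and 2 thus stood lowest in fetuses 3 and 4 where CpGs were dense.

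At the upper end, the 518 dense CpGs at 10 to 20% in primary replicates 1 and 2 averaged 7.81% in replicates 3 and 4, 13.3% in vehicle and 10.9% after 5aCdR. Medium-density CpGs of the same class (1890 sites) went from 22.8 to 27.4%, and the 1103 sparse ones from 27.7 to 27.3%. In each of the 5 classes of starting level the ratio of vehicle to primary was higher at dense than at medium or sparse CpGs. The split did not match the densities in primary replicates 3 and 4, where dense CpGs stood lowest in every class. A lower start gives a larger ratio for the same rise in points, and its part in the ratios was not tested. In points the dense CpGs had the smallest rise in the class at 0 and the largest in the class at 10 to 20%. The class above 0 and up to 1% held only 89 dense and 44 sparse sites.

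**Figure D3:**
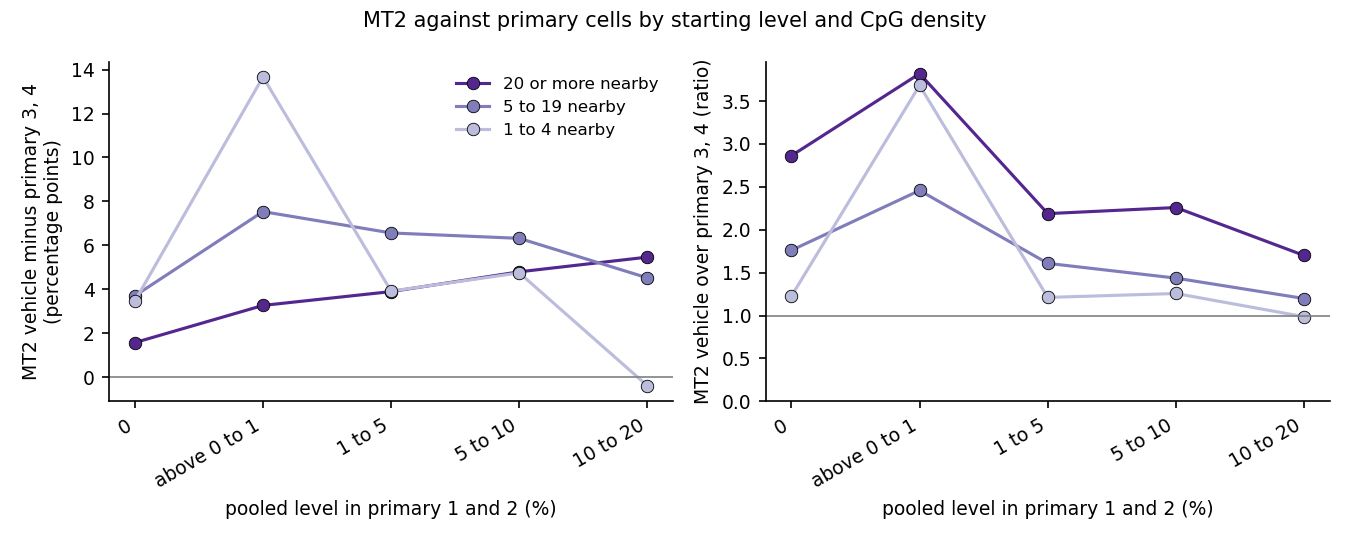
Difference (left, percentage points) and ratio (right) of the mean level in MT2 vehicle over primary replicates 3 and 4, by the pooled level in primary replicates 1 and 2 (x axis, percent), for dense, medium-density and sparse CpGs. Dense CpGs have the highest ratio in every class, from 1.70 to 3.82, and a rise of 1.58 to 5.47 points. They also have the lowest level in primary replicates 3 and 4 in every class.

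Within the dense CpGs the rise was larger in points where CpGs were fewer. At 20 to 24 CpGs per window (3685 sites) the level went from 1.94% in primary replicates 3 and 4 to 4.62% in vehicle and 3.79% after 5aCdR. At 25 to 29 (3747 sites) it went from 1.36 to 3.51 and 3.10%. At 30 to 39 (6081 sites) it went from 0.992 to 2.54 and 2.25%. In the densest windows, 40 to 83 CpGs (5579 sites), it went from 0.740 to 2.11 and 1.8%. The ratio of vehicle to primary ran from 2.38 in the least dense class to 2.85 in the densest. In all 4 classes the vehicle wells lay above both primary libraries, and the 5aCdR wells lay below all vehicle wells.

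Sites on either side of the limits were close to each other. Dense CpGs at 18 to 20% in primary replicates 1 and 2 (73 sites) averaged 12.3% in replicates 3 and 4, 18.1% in vehicle and 15.6% after 5aCdR. Just outside, at 20 to 22% (78 sites), the levels were 14.3, 21.1 and 17.8%. Sites with exactly 20 CpGs in the window (723) had 2.62, 5.83 and 4.46%, and those with 19 (747) had 2.54, 6.32 and 5.28%. The limits therefore cut through a gradual change.

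The dense CpGs shared features that the rule did not name. Their median distance to the nearest listed CpG was 6 bp, against 13 bp at medium and 44 bp at sparse sites, a direct consequence of density. Both strands were listed in 90.0% of dense CpGs, 77.0% of medium and 64.3% of sparse ones. Scaffold KB708147.1 held 914 dense CpGs, and 5.36% of the reads over dense CpGs in vehicle wells fell on it, against 4.01% in primary replicates. Its dense CpGs went from 1.29% to 2.98% and 2.65%. The 488 on KB708184.1 went from 1.60 to 3.51 and 2.63%, and the 508 on small unplaced contigs from 1.66 to 3.01 and 2.60%. The rise was as large, 1.88 points, at the 16281 dense CpGs outside these and outside KB708127.1, so it did not rest on 1 scaffold.

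A small number of sites carried much of the rise. The mean over the vehicle wells was at least 25 points above the mean of primary replicates 3 and 4 at 524 dense CpGs (2.74%), and at least 25 points below it at 100 (0.524%). These 624 sites supplied 49.4% of the net summed difference. The other 18468 sites stood at 0.890% in primary cells, at 1.85% in vehicle and at 1.92% after 5aCdR. Both sets were defined by the difference between vehicle and primary cells, so these values are a description. Leaving out sites picked for high vehicle values favours a lower vehicle mean. Nothing is therefore read from 5aCdR against vehicle at the other sites. Any difference above 0 was found at 4735 dense CpGs and any below 0 at 1567. More vehicle wells than primary libraries were averaged, so at sites near 0 these counts lean toward a difference above 0.

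The 524 sites were chosen on their vehicle and primary values, so their levels in those groups are a description. They averaged 2.96% in primary replicates 3 and 4, 43.1% in vehicle and 24.1% after 5aCdR, and their median density was 29. By group mean 93.9% of them lay between 20 and 80% in vehicle. The wells often disagreed at these sites. The median gap between the highest and the lowest of the 4 vehicle wells was 77.5 points, and 95, 130, 166 and 133 of the 524 were at 20% or more in 1, 2, 3 and 4 wells. A site that was high in 1 well only averaged 26.2% over the vehicle wells and 5.14% after 5aCdR, while a site high in all 4 averaged 64.7 and 41.7%. Sites picked for a high value in these wells tend to be lower in any other well, so an effect of 5aCdR and an effect of the choice cannot be told apart at the 524 sites.

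Disagreement between libraries of 1 group was common in MT2. Between 924 and 1223 dense CpGs differed by 25 points or more in each of the 6 pairs of vehicle wells. In the 6 pairs of primary libraries, of which replicates 1 and 2 had been required to be low, it was 270 to 443, and in the 3 pairs of 5aCdR wells 672 to 726. Fetuses 3 and 4 differed by that much at 443 sites, of which 223 were higher in fetus 4 and 220 in fetus 3. The pair counts were highest among wells of 1 line seeded from 1 stock. At low levels they depend on depth, and vehicle replicates 2 and 3 had the lowest median depth at dense CpGs, 26 and 25 reads. The part of depth in the counts was not tested.

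The most repeatable gains were at 84 dense CpGs, on 52 scaffolds, that were at 20% or more in all 4 vehicle wells and below 5% on average in primary replicates 3 and 4. Over these sites, chosen for that pattern, the 4 vehicle wells averaged 55.1, 61.7, 68.0 and 57.4%. Primary replicates 3 and 4 averaged 0.487 and 0.369%. The 5aCdR wells averaged 37.2, 38.5 and 40.9%, with 34 of the 84 sites at 20% or more in all 3 wells and 2 below 20% in all 3. Where both strands were listed in vehicle (71 of the 84), both were at 20% or more at 61 sites. Of the larger set of 524, 437 had both strands listed and 223 were at 20% or more on both. The strands hold the same vehicle reads that chose the sites, so both counts are a description. The median gap between the strands was 24.8 points at the 71 sites and 24.5 points at the 437.

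Few single dense CpGs passed a test of their own. A quasi-binomial logistic model with dispersion moderated by limma was fitted over all 147189 CpGs with 10 or more reads in the 6 libraries, and calls are adjusted p-values below 0.05. Of the 19092 dense CpGs, 27 were called higher in vehicle than in primary replicates 3 and 4 (0.141%), beside a background of 0.949% of all CpGs tested. A single one was called lower (0.00524%), beside a background of 1.83%. Both shares lie below the background, so calls were not frequent at dense CpGs. Without adjustment 324 were higher (1.70%) and 112 lower (0.587%) at p below 0.05, beside 6.44 and 9.66% of all CpGs tested. With primary replicate 3 or primary replicate 4 left out, no dense CpG was called, beside 0.109 and 0.179% of all CpGs tested. Without vehicle replicate 1, 2, 3 or 4 the calls in both directions numbered 8, 18, 17 and 14 instead of 28. These are 0.0419, 0.0943, 0.0890 and 0.0733% of dense CpGs, beside 1.07, 1.67, 1.73 and 1.11% of all CpGs tested.

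The 27 higher sites had differences of 1.49 to 100 points. In primary replicates 3 and 4, 15 of them had no methylated read, and 14 were at 50% or more in all 4 vehicle wells. After 5aCdR the mean was lower than in vehicle at 23 of the 27, and at 24 every 5aCdR well was above both primary libraries. The sites were picked on the same vehicle and primary values, so both counts are a description. The largest difference was at position 2518971 of scaffold KB708275.1, which stood at 0% in all 4 fetuses and at 100% in all 4 vehicle wells with 10 to 49 reads each (adjusted p = 0.0176 in the quasi-binomial model). Its 5aCdR wells stood at 100, 100 and 92.6%. This site and the next were picked after their values were seen.

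The single site called lower was position 8745241 of scaffold KB708184.1. It was at 0% in fetuses 1 and 2, at 100 and 95.5% in fetuses 3 and 4, and at 0% in all 4 vehicle wells (adjusted p = 0.0235). In 5aCdR wells it stood at 30.2, 0 and 0%. The difference between fetuses was thus as large as that between fetuses 3 and 4 and MT2.

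Neighbouring sites were also tested together, in non-overlapping tiles of 1 kb with at least 3 CpGs of 10 or more reads in every library compared. Of 17412 tiles, 2541 held at least 3 dense CpGs. Among these, 85 were called higher in vehicle (3.35%), beside 4.55% of all tiles, and 2 were called lower (0.0787%), beside 7.17% of all tiles. Because the sites were selected for a low level in primary cells, a fall had little room, and nothing is read from the direction. The share called higher was again below the background. Without adjustment 265 were higher (10.4%) and 32 lower (1.26%), beside 11.1 and 14.7% of all tiles. The number of calls depended on the 2 primary libraries: 31 tiles were called without primary replicate 3 and 14 without primary replicate 4, against 87 with all libraries. These are 1.22, 0.551 and 3.42% of the 2541 tiles, beside 4.40, 3.07 and 11.7% of all tiles.

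The 85 tiles lay on 62 scaffolds, with a median level of 0.290% in primary replicates 3 and 4, 16.8% in vehicle and 12.4% after 5aCdR. Their differences ran from 2.13 to 85.0 points, with 31 below 10 points and 21 at 25 points or more. The mean after 5aCdR was lower than in vehicle at 66 tiles and higher at 19. At 76 of the 85, every 5aCdR well was above both primary libraries. The tiles were called for high vehicle and low primary values, and 5aCdR is set against those same libraries, so these 2 counts are a description.

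The tiles named here are the 10 with the largest rise among those called, with a difference of at least 25 points and no overlap between the groups. Their differences ran from 33.6 to 85.0 points and their adjusted p-values, from the quasi-binomial model, from 7.58e-05 to 0.0237. The most strongly supported was the tile at KB708147.1:19093001-19094000, with 8 dense CpGs among 11. Its level was 0 and 0.127% in primary replicates 3 and 4 and 73.6, 52.5, 61.2 and 67.9% in the vehicle wells. The 5aCdR wells stood at 60.5, 69.9 and 86.4%. This tile was called under all 12 alternatives that gave it a value, and its level after 5aCdR overlapped that of the vehicle wells.

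Within this tile the gain was not even. The 3 dense CpGs at the low end of its coordinates, positions 19093181, 19093189 and 19093216 of KB708147.1, averaged 96.2, 86.6 and 89.8% over the vehicle wells. The last in the row, position 19093308, averaged 28.2%, with 0, 40, 21.4 and 51.5% in the 4 wells. Each of the 8 was at or near 0 in all fetuses. The decline with position was present in the 5aCdR wells too, from 82.8, 91.3 and 92.3% at the first 3 positions to 24.2% at the last.

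The tile at KB708275.1:2518001-2519000 held 4 dense CpGs among 5 and had no methylated read in any fetus. Vehicle wells stood at 76.1, 83.1, 82.7 and 43.4% and 5aCdR wells at 74.3, 76.6 and 79.8% (vehicle minus primary 71.3 points, adjusted p = 0.00180 in the quasi-binomial model). The tile at KB708183.1:11775001-11776000 had the largest rise, 85.0 points, from only 3 dense CpGs within 8 bp and 35 to 149 reads per library. Its vehicle wells stood at 83.9, 60.0, 100 and 100%, and its 5aCdR wells at 100, 32.1 and 100%. The wells of either group were thus far apart in this tile. It was not called when primary replicate 3 or 4 was left out, with adjusted p-values of 0.0794 and 0.0703.

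The tile at KB708300.1:901001-902000, with 5 dense CpGs among 7, behaved otherwise after 5aCdR. It stood at 0 and 0.215% in primary replicates 3 and 4, at 30.9, 38.5, 64.2 and 36.3% in vehicle wells and at 9.70, 9.81 and 8.61% in 5aCdR wells. The 5aCdR wells were all below the vehicle wells and all above the fetuses. From vehicle to 5aCdR the level fell by 33.1 points, which was called (adjusted p = 0.0110 in the quasi-binomial model). The call was lost under 4 of 13 alternatives, among them without vehicle replicate 4 (adjusted p = 0.0640) and with limma on the logit scale (adjusted p = 0.271). Among the 10 tiles it was the 1 with every 5aCdR well below every vehicle well. All 5 of its dense CpGs were lower after 5aCdR, from vehicle means of 21.8 to 56.4% to 2.2 to 9.17%.

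**Figure D4:**
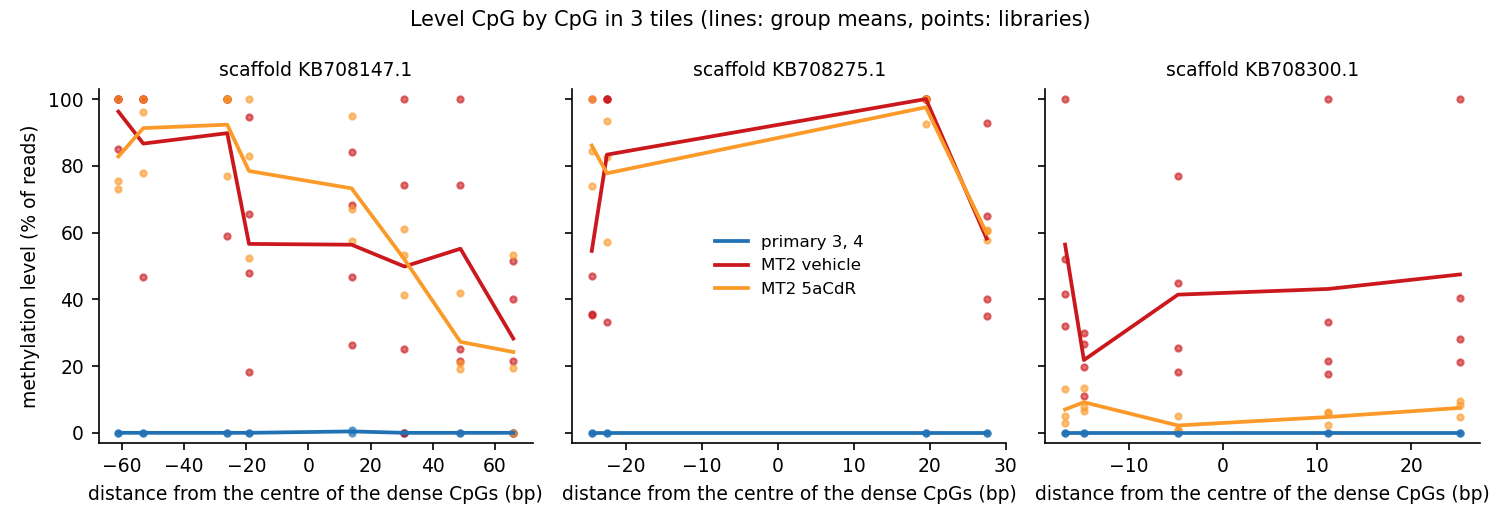
Methylation level (y axis, percent of reads) of each dense CpG in the tiles on KB708147.1, KB708275.1 and KB708300.1 against its distance from the mean position of the dense CpGs (x axis, bp), with a point per library and lines through the group means. Primary replicates 3 and 4 lie at or near 0 in all 3 tiles, and the 5aCdR line lies below 10% in the last tile. In the first 2 tiles the lines of vehicle and 5aCdR cross, and at single CpGs they are apart, as at position 2518927 of KB708275.1 with 54.5% in vehicle and 86.1% in 5aCdR.

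The other 6 of the 10 tiles lay on KB708276.1 (4130001-4131000), KB708152.1 (18981001-18982000), KB708291.1 (1137001-1138000), KB708168.1 (9709001-9710000), KB708277.1 (2438001-2439000) and KB708367.1 (457001-458000). Their vehicle means were 60.7, 71.1, 46.2, 40.1, 35.2 and 43.6%, against primary means of 0, 12.6, 1.29, 4.16, 0.828 and 10.0%. Their 5aCdR means were 56.8, 51.1, 20.1, 26.8, 27.0 and 37.9%, each below the vehicle mean. Of all 10 tiles, 8 had a lower mean after 5aCdR and 2 a higher one, and in each of the 10 every 5aCdR well was above both primary libraries. As with the 85 tiles, the choice of these 10 on vehicle and primary values bears on both counts. The tiles on KB708276.1 and KB708152.1 were not called without primary replicate 3 (adjusted p = 0.104 and 0.0773), and those on KB708276.1, KB708168.1 and KB708367.1 were not called without primary replicate 4 (adjusted p = 0.232, 0.149 and 0.0734). Without moderation of the dispersion, only those on KB708147.1 and KB708367.1 among the 10 stayed called (adjusted p = 0.0379 each in the quasi-binomial model). The others then had adjusted p-values of 0.0528 to 0.138.

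**Figure D5:**
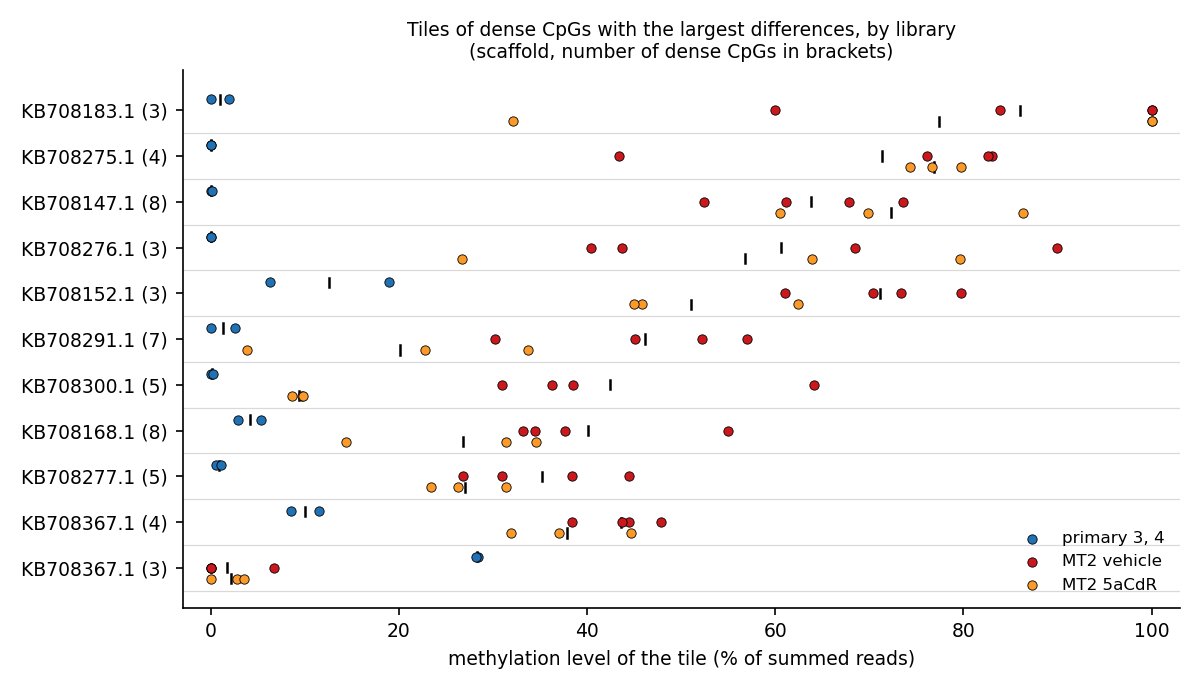
Methylation level (x axis, percent of summed reads) of the 10 tiles with the largest rise and, in the last row, the 1 with a fall, by scaffold, with the number of dense CpGs in brackets. Each point is a library and each short bar a group mean. In the 10 upper rows all MT2 points lie to the right of both primary points, and only on KB708300.1 are all 5aCdR points to the left of all vehicle points.

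A single tile met the same rule for a fall, KB708367.1:544001-545000 with 3 dense CpGs among 5. It was at 0% in fetuses 1 and 2 and at 28.4 and 28.2% in fetuses 3 and 4. Vehicle wells stood at 6.73, 0, 0 and 0% and 5aCdR wells at 2.79, 0 and 3.51% (vehicle minus primary -26.6 points, adjusted p = 0.0102 in the quasi-binomial model). The rule required low levels in fetuses 1 and 2, and the MT2 wells were close to these, as they were at position 8745241 of KB708184.1. The call was lost without primary replicate 4 (adjusted p = 0.151).

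The positions of the gains along the DNA were also described. When dense CpGs were joined over gaps of at most 250 bp they formed 5780 stretches, of which 2555 held at least 3 dense CpGs, with a median span of 67 bp. Of those 2555, 84.4% averaged below 5% in vehicle. At 20% or more stood 76 stretches in vehicle, 53 in 5aCdR and 17 in primary replicates 3 and 4, and 42 of the 76 were below 5% in the primary cells. A site higher by 25 points or more was present in 228 stretches. It was the only one in 156 of them, while in 27 most dense CpGs of the stretch had moved, and in 6 all had.

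The partner of a site higher by 25 points was higher by 25 points itself in 36.0% of pairs 2 to 10 bp apart, 27.1% at 11 to 50 bp, 22.4% at 51 to 100 bp and 16.0% at larger distances up to 250 bp. Beside a site that had not moved so far, the partner had done so in 0.982 to 2.46% of pairs. Sites this close can be read on the same fragments, so the pairs are not independent. Whether gains were clustered beyond shared fragments was not tested. The longest stretch, 51 dense CpGs at KB708184.1:10004661-10005942, averaged 4.84% in primary replicates 3 and 4, 13.9% in vehicle and 11.2% after 5aCdR. Only 5 of its 51 sites were higher by 25 points or more, and single sites ranged from 0 to 100% in vehicle.

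For 5aCdR against vehicle no dense CpG was called among 155920 CpGs tested with the quasi-binomial model, in either direction. The background was 0.000641% higher and 0.0859% lower. Limma on the logit scale called none either. Without adjustment 74 dense CpGs were higher (0.388%) and 137 lower (0.718%) at p below 0.05, beside 1.19 and 7.58% of all CpGs tested. Of the 2541 tiles, none was called higher and 2 were called lower (0.0787%), beside a background of 0.0161% higher and 0.783% lower among 18639 tiles. Without adjustment 36 were higher (1.42%) and 75 lower (2.95%), beside 1.23 and 11.1% of all tiles.

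The 2 called tiles were the one on KB708300.1 described above and one at KB708128.1:57001-58000, where 8 of 33 CpGs were dense. The latter was read 44794 to 117612 times per library, against a median of 329 reads over the 2541 tiles, and its level fell from 25.2% ± 0.888 in vehicle (SD, n = 4) to 23.0% ± 0.319 in 5aCdR wells (SD, n = 3). Its primary level was already 20.3 and 32.4%, so it showed no gain in MT2. None of the 2541 tiles was called without vehicle replicate 4, beside 0.209% of all tiles, and 2 were called without vehicle replicate 3, beside 0.435%. When any other well was left out 1 was called, beside 0.284 to 0.638% of all tiles. Of dense CpGs, 225 had a mean at least 25 points lower after 5aCdR than in vehicle and 86 at least 25 points higher. Of the 225, 208 were among the 524 sites that were 25 points higher in vehicle than in primary cells. The 2 comparisons share the vehicle wells, so this count is a description.

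To measure the loss after 5aCdR at dense CpGs methylated in MT2 without that shared choice, sites were picked on vehicle replicates 1 and 2, and 5aCdR was compared with vehicle replicates 3 and 4. At 50% or more in the pooled reads of the first pair stood 192 dense CpGs. They averaged 42.0 and 44.2% in vehicle replicates 3 and 4, against 67.1% in the pair that chose them, and 8.58 and 8.28% in primary replicates 3 and 4. Of the 192, 97 were at 20% or more in both of vehicle replicates 3 and 4, and 26 were below 5% in both. So a high level in one pair of wells was only in part found again in the other.

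The same 192 sites averaged 35, 35.3 and 36.3% in the 5aCdR wells, 7.57 points below vehicle replicates 3 and 4 (exact permutation p = 0.1, the smallest of 10 splits). The level fell by 17.6%, and both vehicle wells lay above all 5aCdR wells. At CpGs chosen by the same vehicle limit the level fell by 16.0% at medium density, 15.3% at sparse sites and 15.2% at densely set CpGs that were highly methylated in primary cells. The log2 ratio to medium CpGs moved by -0.03 (exact permutation p = 0.6), and that to the highly methylated dense CpGs by -0.04 (exact permutation p = 0.3). Against all CpGs of a density below 20, where the level fell by 12.5%, the log2 ratio moved by -0.09, from -0.91 and -0.83 in the vehicle wells to between -0.99 and -0.92 in the 5aCdR wells, which did not overlap (exact permutation p = 0.2). No p below 0.1 was possible in these 3 tests, so they do not show whether the loss differed.

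At the other end, 15485 dense CpGs had no methylated read in vehicle replicates 1 and 2. They stood at 1.22 and 1.2% in vehicle replicates 3 and 4 and at 1.18, 1.16 and 1.16% in 5aCdR wells, and 0.666 and 0.742% in primary replicates 3 and 4. From vehicle to 5aCdR the level fell by 0.0424 points. Dense CpGs with a low level in MT2 thus kept it after 5aCdR, slightly above that of the fetal cells.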

How the data were processed

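Each deposited file lists strand positions of CpGs. Per the file headers, the coverage column is a read count at that position, and the remaining value columns are the percent of its reads with C and with T. Positions with fewer than 10 reads are not listed. The programs in the submitters' processing notes were methylKit 1.10.0 with R 3.6.1, Bismark 0.22.1 with Bowtie2, Trim Galore 0.5.0 and bcl2fastq 2.20.0.42. The sources used here give neither the genome build nor the handling of PCR duplicates, so counting error in molecules is unknown and no interval is given.

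Methylated reads were coverage times percent C, rounded, and both strands were summed. A strand under 10 reads is missing from the sum. Library means were compared with exact two-sided permutation tests, and CpGs and 1 kb tiles with a quasi-binomial model (limma's squeezeVar, dispersion at least 1, F test, Benjamini-Hochberg over all units), tested on simulated data. The prior was estimated from units whose methylated reads and unmethylated reads each numbered 10 or more. Tile levels include the tile's other CpGs. Named tiles were the 10 largest rises and up to 5 largest falls among called tiles with a difference of at least 25 points and no overlap, and the like for 5aCdR. Positions are 1-based.

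The sites, lists and tests were chosen with earlier results of these data known. A planned match to RefSeq promoters and gene lists was not made, since no promoter sequence or genome of these scaffolds was used. Alternatives were other read minima, limits and densities, pooled reads, separate strands, a coverage limit, other dispersions, limma on the logit, other tiles, leaving out each library, and a replicate block. Python 3.11.15, numpy 2.4.6, pandas 2.3.3, scipy 1.17.1, R 4.3.3 and limma 3.58.1 were used.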

Additional observations from a re-analysis of the deposited data

Results flagged for a closer look

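One value stood apart from the other libraries of its group. In the tile on scaffold KB708367.1 that starts at position 544001, vehicle replicate 1 had a level of 6.73% and the other 3 vehicle wells had 0. The gap between this well and the next, divided by the range of the group, was 1, above the critical value of Dixon's test at the 95% level for 4 samples. With the other 3 wells at the floor of 0, any value above 0 gives a ratio of 1, so the test adds nothing here. This well's level was the 1 value of this kind among 27 groups examined. In data without such a floor, chance alone would set apart about 1 group in 20.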

How the results depend on the processing

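No result changed its direction under any setting run. The difference between 5aCdR and vehicle at dense CpGs was -0.450 to -0.404 points with 1 library left out, with exact permutation p of 0.0667 to 0.1, the smallest those designs allow. With a replicate block it was -0.439 points (exact p = 0.25). Calls of single dense CpGs between vehicle and primary cells numbered 28 (0.147%), beside 2.78% of all CpGs tested. There were 58 with dispersion from all 3 groups (0.304%, beside 4.68%) and 11 without moderation (0.0576%, beside 1.14%). Limma on the logit gave 60 (0.314%, beside 2.69%) and an upper limit on coverage 18 (0.0948%, beside 2.11%). With 1 library left out there were 0 to 18 (at most 0.0943%, beside 0.109 to 1.73%). The replicate block gave 0, beside 0.0408% of all CpGs tested. Calls of tiles (87 of 2541, 3.42%) numbered 34 of 710 (4.79%) with 20 reads, 12 without moderation, 14 to 81 with 1 library left out and 30 with the block. Over all 17412 tiles, 2040 calls (11.7%) became 284 (1.63%) without moderation, 534 to 1780 (3.07 to 10.2%) with 1 library left out and 758 (4.35%) with the block. With 20 reads 19.7% of all 4938 tiles were called. For 5aCdR against vehicle, 1 dense CpG (0.00524%) was called with dispersion from all 3 groups, beside 0.450% of all CpGs tested. The 2 called tiles became 1 with 20 reads, 4 with dispersion from all 3 groups, 0 without moderation, 0 with limma, 1 with the coverage limit, 0 to 2 with 1 library left out and 0 with the block. Of all tiles 0.799% were called at first. In the order of these settings it was 2.67, 2.32, 0.0429, 0.150, 0.283, 0.209 to 0.638 and 0.349%. No shared deviation of same-numbered libraries was seen: all correlations of tile deviations lay between -0.0232 and 0.0194. The 2 primary libraries give mirror values by construction, and noise can hide a shared deviation. Whether the numbers pair the samples is therefore not settled. No paired analysis was possible for 5aCdR against primary replicates 3 and 4, or at the sites methylated in vehicle replicates 1 and 2, because those groups share only 1 replicate number. With 25 to 59 median reads per dense CpG, levels of a few percent at a single site were not resolved.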
